A study of Rattus norvegicus with 8 samples.

Results

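The genes described here are the heat shock genes and the genes of the unfolded protein response, taken by name from a rat whole-genome array hybridised with lung RNA. They are the probes whose gene name is one of the Hsp, Hspa, Hspb, Hspd, Hspe, Hsph, Hspca or Hspcb names with or without a number, begins with Dnaj or Pdia, or is one of a short list of stress factors and chaperones (Hsf1, Hsf2, Ddit3, Atf4, Atf6, Calr, Canx, Herpud1, Hyou1, Creld2 and Bag3 among those found). That gave 88 of 41012 probes, for 60 of 35561 gene names. Of these, 81 probes for 56 genes were bright enough to be tested, among 28440 probes for 24183 gene names in all. The names Xbp1 and Sdf2l1 were not analysed here, and Edem1 and Sel1l are on the array under older names and are given apart. Rats had been given cobalt (12.5 mg per kg body weight) or normal saline for 7 days. Hypoxia followed, at 30000 ft for 6, 12, 24 or 48 h. Each of the 8 arrays carried lung RNA from 1 pretreatment after 1 duration, and its other dye carried RNA from 0 h after that pretreatment. The groups are therefore cobalt at 6, 12, 24 and 48 h and saline at 6, 12, 24 and 48 h, with 1 array each, and the sources used here give no strain, sex, age or number of animals.

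Heat shock proteins are chaperones that hold, fold and refold other proteins. HSP70 family members work with J-domain co-chaperones, HSP90 finishes the folding of kinases and steroid receptors, HSP110 exchanges nucleotide on HSP70, and the small heat shock proteins keep unfolded chains from aggregating. Heat shock factor 1 drives many of these genes when unfolded protein builds up in the cytosol. In the endoplasmic reticulum (ER) the same problem is sensed by PERK, IRE1 and ATF6, which raise the transcription factors ATF4 and CHOP (the product of Ddit3) and the ER chaperones. In the lung, type II cells carry a heavy secretory load through the ER because they make surfactant.

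The dye of the hypoxia RNA was Cy3 for all cobalt arrays and Cy5 for all saline arrays, and each pretreatment had a slide of its own, so pretreatment, slide, scan and dye orientation cannot be told apart. Within a pretreatment, hypoxia and dye also change together. A dye bias of a probe therefore stays in its response after cobalt and in its response after saline. The average over both pretreatments cancels a dye bias that the slides share. The software called 57.7% to 67.2% of spots well above background in green and 63.5% to 72.7% in red. The 8 lung type II cell markers and the 6 type I cell markers examined all passed the brightness filter. All ratios below are log2 of hypoxia over 0 h, so that 1 is a doubling. Estimates are given with their standard error (SE) from limma, and a call is an adjusted p under 0.05 over all 28440 probes. All 4 arrays of a pretreatment were set against RNA labelled as the same 0 h control, so p-values cover how the arrays of different durations spread, with no measure of how 0 h RNA varies. In bulk RNA a change in the share of a cell type and a change in RNA per cell cannot be told apart.

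Averaged over both pretreatments, hypoxia raised 25 of 81 member probes (30.9%) and lowered 7 (8.64%). Of all probes, 14.9% were raised and 17.4% lowered (32.3% in either direction). Member probes were brighter, with a median log2 intensity of 9.89 against 7.89 for all probes. The part of brightness in these counts was not tested. With 1 probe per gene, the brightest, 21 genes rose and 6 fell of 56, where 15.8% of all gene names rose and 16.4% fell. The median estimate of the 56 genes was 0.11, while that of all gene names was -0.0014. The genes that rose were led by Hyou1, Hspb1, Atf4 and Hspa5, and the genes that fell were led by Pdia5. With arrays centred on their median instead of loess-normalized, 17 member probes rose (21%) and 15 fell (18.5%), against 21.4% and 26.4% of all probes. The share that rose was then near that of all probes. Of the 21 genes that rose, 12 kept their call whichever array was left out, and of the 6 that fell, 3 did. Without the saline 12 h array, 19 genes rose and 4 fell, and the shares of all gene names in that fit are not given here.

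**Figure D1:**
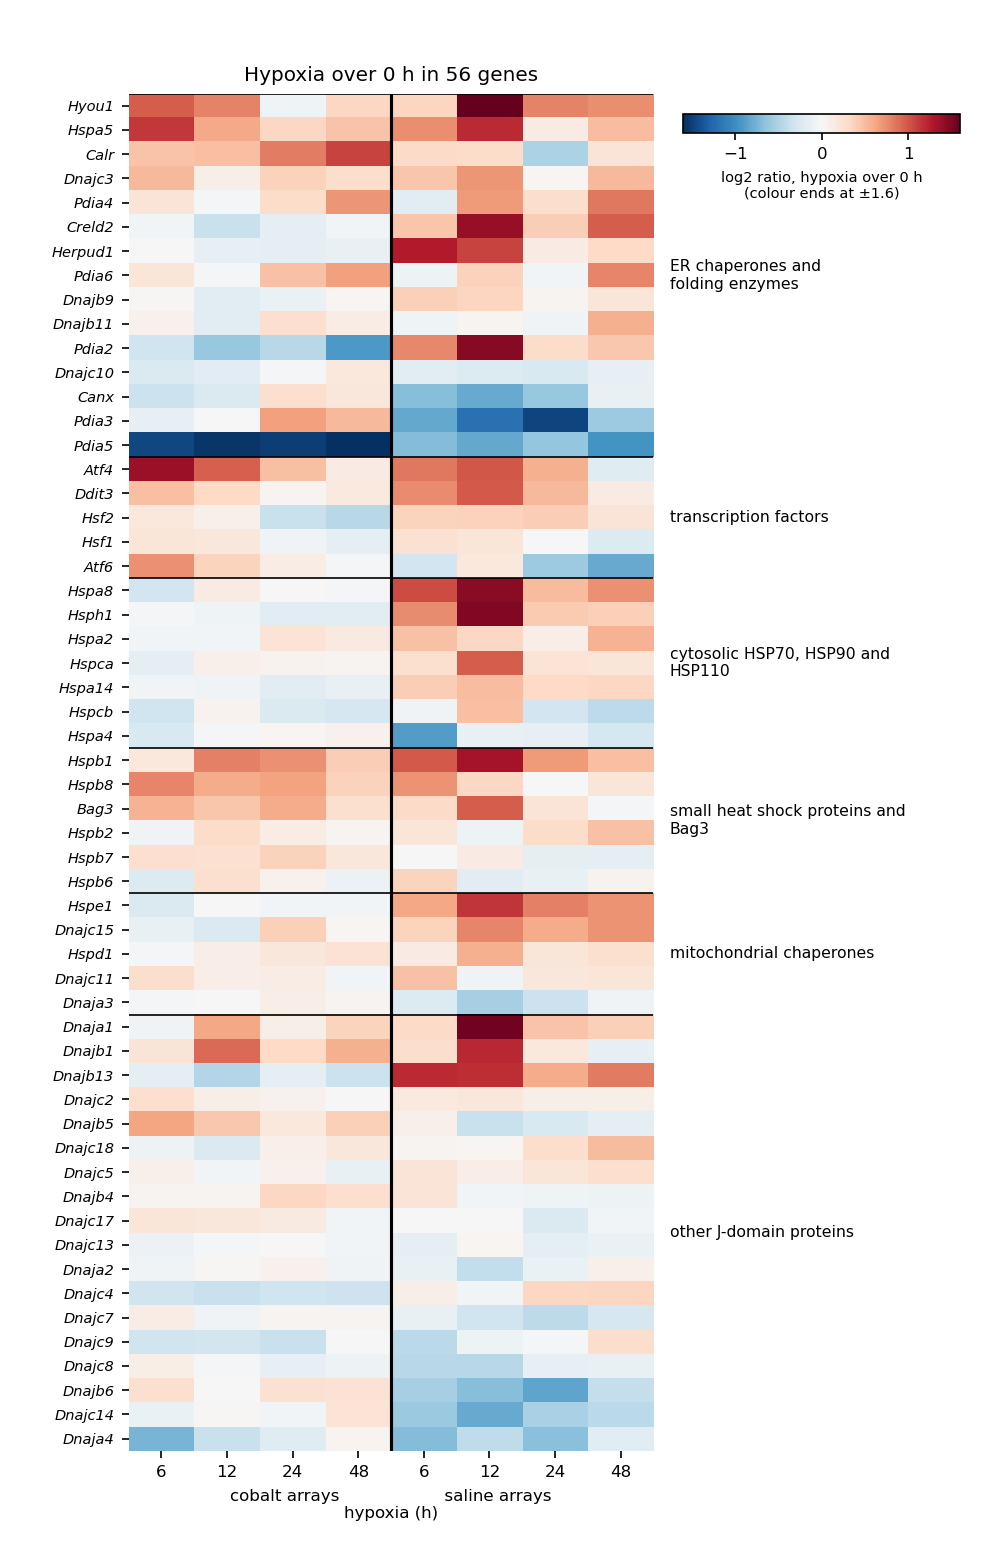
Log2 ratio of hypoxia over 0 h for 56 genes (rows, grouped by role and ordered by average response) on 8 arrays (columns, cobalt left and saline right, by hours of hypoxia), with red higher and blue lower than 0 h and the colour ending at ±1.6. Pdia5 is blue on all 8 arrays, and the saline 12 h column holds the darkest red cells, such as Hyou1 at 2.12.

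Among the 15 ER chaperones and folding enzymes tested, 6 genes rose in the average, 3 fell and 6 had no call, with a median of 0.29. Of all gene names 15.8% rose and 16.4% fell, so the share that fell here (20%) was near the background. The 6 that rose were Hyou1, Hspa5, Calr, Dnajc3, Pdia4 and Creld2. Hspa5 encodes BiP, the main HSP70 of the ER lumen. Its ratio was 1.13, 0.61, 0.33 and 0.46 on the cobalt arrays at 6, 12, 24 and 48 h and 0.75, 1.19, 0.13 and 0.50 on the saline arrays. All 8 arrays were above 0, and the pretreatments overlap. The average was 0.64 ± 0.12 (adjusted p = 0.00349), or 1.55-fold.

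Hyou1, a large HSP70 relative of the ER that was first described as an oxygen-regulated protein, was at 0.97, 0.80, -0.07 and 0.33 on the cobalt arrays and at 0.35, 2.12, 0.80 and 0.74 on the saline arrays. The saline 12 h array stands above the other 7. The average was 0.75 ± 0.18 (adjusted p = 0.0115), the highest estimate among the 56 genes, and without the saline 12 h array it still passed. A second, much dimmer Hyou1 probe, described further on, gave only 0.14 ± 0.06.

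Dnajc3 encodes an ER co-chaperone that also inhibits PERK. It lay between 0.10 and 0.51 on the cobalt arrays and between 0.03 and 0.71 on the saline arrays, above 0 on all 8, with an average of 0.37 ± 0.08 (adjusted p = 0.00641). Calr, the lectin chaperone calreticulin, was at 0.45, 0.49, 0.82 and 1.08 on the cobalt arrays and at 0.31, 0.29, -0.51 and 0.21 on the saline arrays. The cobalt arrays did not overlap the saline arrays for this gene, and the average was 0.39 ± 0.10 (adjusted p = 0.0183). Pdia4, a thiol oxidoreductase of the ER, was at 0.20, -0.02, 0.30 and 0.71 with cobalt and at -0.18, 0.68, 0.29 and 0.84 with saline. Its average was 0.35 ± 0.12 (adjusted p = 0.0415). Creld2, an ER stress-inducible folding factor, was at -0.04, -0.35, -0.16 and -0.05 on the cobalt arrays and at 0.45, 1.39, 0.40 and 0.97 on the saline arrays. Its average was 0.33 ± 0.11 (adjusted p = 0.0391), and all 4 arrays above 0 were saline arrays.

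On its brightest probe, Herpud1, which serves ER-associated degradation, was likewise above the cobalt arrays on every saline array. It was at 0.01, -0.13, -0.14 and -0.11 with cobalt and at 1.27, 1.08, 0.13 and 0.32 with saline, with an average of 0.30 ± 0.12 that missed the threshold (adjusted p = 0.0736). On the second Herpud1 probe the pretreatments overlap, with 0.26 on the cobalt 48 h array and -0.18 on the saline 24 h array. Its cobalt minus saline difference had no call (-0.42, adjusted p = 0.153). Pdia6, another disulphide isomerase, was at 0.19, -0.02, 0.47 and 0.66 with cobalt and at -0.08, 0.37, -0.04 and 0.79 with saline, with an average of 0.29 ± 0.11 (adjusted p = 0.0608). The other ER members without a call were Dnajb11 (0.09), Dnajb9 (0.09), Pdia2 (0.08) and Dnajc10 (-0.13). Some of the calls in the ER group were lost when 1 array was left out. Creld2 and Pdia4 each lost the call in 6 of 8 leave-one-out fits, with adjusted p up to 0.0869 and 0.0995, and Calr lost it without the cobalt 24 h array (adjusted p = 0.0517). Median centring also ended the calls of Calr (0.26, adjusted p = 0.0956), Creld2 (0.23, adjusted p = 0.121) and Pdia4 (0.31, adjusted p = 0.0579), and it gave Pdia6 one (0.33, adjusted p = 0.0385).

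The promoters of several of these genes carry the elements known to answer ER stress. Promoter windows from 250 bases before to 50 bases after the start site, from RefSeq on GRCr8, were found for 48 of the 60 gene names and searched on both strands. The ER stress response element, CCAAT and then CCACG after 9 bases, lies in 0.0657% of all 33469 windows and in those of Hspa5, Calr, Canx, Creld2 and Dnajc3. Its second form, ATTGG and then CCACG after 1 base, lies in 0.0508% of all windows and in those of Hyou1, Herpud1 and Dnajb11. Hyou1 holds that second form at 2 places, and one of them overlaps a match to TGACGTGG, a shorter motif that lies in 0.595% of windows and also in those of Bag3 and Dnajc10. The stretches below are shown because they set the element of the genes just described side by side, each read 5′ to 3′ along its gene, with the match in capitals and 20 bases on either side where the window allows.
Hspa5 chr3:38452953-38453011: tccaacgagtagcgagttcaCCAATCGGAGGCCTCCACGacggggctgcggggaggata
Creld2 chr7:121789219-121789277: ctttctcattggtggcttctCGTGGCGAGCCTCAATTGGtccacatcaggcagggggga
Dnajc3 chr15:102432514-102432572: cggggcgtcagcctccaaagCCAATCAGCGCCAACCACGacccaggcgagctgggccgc
Calr chr19:40213117-40213173: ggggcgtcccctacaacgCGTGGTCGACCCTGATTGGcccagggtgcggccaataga
Canx chr10:35158049-35158107: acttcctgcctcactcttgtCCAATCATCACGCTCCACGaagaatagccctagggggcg
Herpud1 chr19:10614801-10614851: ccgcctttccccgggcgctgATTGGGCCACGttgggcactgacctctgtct
Hyou1 chr8:53602674-53602724: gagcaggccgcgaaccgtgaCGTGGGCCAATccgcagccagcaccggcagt
Hyou1 chr8:53602774-53602824: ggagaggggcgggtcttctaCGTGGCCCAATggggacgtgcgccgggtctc

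Canx and Herpud1 lie on the minus strand, and the other genes shown lie on the plus strand. Of the 5 members with the first element, 4 rose in the average and 1, Canx, fell. Over all array genes with that element in the window, 4 of 15 rose and 4 fell. These 15 are the 5 members and 10 other genes, and the 4 that rose are all members. Of the 3 members with the second form, Hyou1 rose and the other 2 had no call. A match is a string of letters and does not show that a factor binds there.

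The 3 ER members that fell in the average were Pdia5, Pdia3 and Canx. Pdia5, a protein disulphide isomerase of the ER, was at -1.45, -1.56, -1.51 and -1.62 on the cobalt arrays and at -0.69, -0.82, -0.62 and -0.95 on the saline arrays. It was below 0 on all 8 arrays, and every cobalt array was below every saline array. The average was -1.15 ± 0.05 (adjusted p = 2.97e-06), or 2.22-fold lower, the lowest estimate among the 56 genes. It varied little with the duration, and it was called under all 20 alternatives, between -1.25 and -1.12. Its single probe lies on chromosome 11 (rn3, 67261063 to 67261844, plus strand, as the array files give it), and a second probe that could check it was not found.

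Pdia3, which works with calnexin and calreticulin on glycoproteins, was at -0.13, -0.01, 0.66 and 0.52 on the cobalt arrays and at -0.82, -1.19, -1.47 and -0.58 on the saline arrays. The pretreatments do not overlap. Its average of -0.38 ± 0.12 (adjusted p = 0.0322) therefore joins a response without a call after cobalt (0.26, adjusted p = 0.292) to a fall after saline (-1.02, adjusted p = 0.00119). Canx, the membrane-bound partner calnexin, was at -0.35, -0.23, 0.26 and 0.18 with cobalt and at -0.69, -0.80, -0.61 and -0.12 with saline. Its average was -0.29 ± 0.09 (adjusted p = 0.038). Leaving out 1 array ended the call of Pdia3 in 4 of 8 fits (adjusted p up to 0.0867) and of Canx in 5 of 8 (adjusted p up to 0.1). The type II cell markers, whose cells are rich in ER, had a median of 0.27 after cobalt, with 3 of 8 higher, and of -0.65 after saline, with 7 of 8 lower. Their part in the ER genes was not tested.

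Of the 5 transcription factors, Atf4 and Ddit3 rose and none fell, against 15.8% of all gene names higher and 16.4% lower. Atf4, which is translated when PERK or a related kinase slows protein synthesis, was at 1.38, 0.96, 0.48 and 0.13 on the cobalt arrays at 6, 12, 24 and 48 h and at 0.85, 0.99, 0.57 and -0.19 on the saline arrays. Both pretreatments were highest at 6 or 12 h and lowest at 48 h. The average was 0.64 ± 0.15 (adjusted p = 0.011). Ddit3 encodes CHOP, a target of ATF4 that is tied to cell death under lasting ER stress. It was at 0.48, 0.32, 0.04 and 0.16 with cobalt and at 0.76, 0.98, 0.51 and 0.13 with saline, above 0 on all 8 arrays. The average was 0.42 ± 0.09 (adjusted p = 0.00746), and it missed the threshold with median centring (0.26, adjusted p = 0.0549).

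Atf6, the ER sensor that is cut to release a transcription factor, was at 0.73, 0.35, 0.11 and -0.03 with cobalt and at -0.31, 0.17, -0.58 and -0.80 with saline, and its average of -0.04 ± 0.11 had no call. Hsf1 was at 0.19, 0.18, -0.06 and -0.14 on the cobalt arrays and at 0.24, 0.19, -0.00 and -0.22 on the saline arrays, and Hsf2, a related heat shock factor, was at 0.16, 0.09, -0.36 and -0.44 with cobalt and at 0.36, 0.36, 0.39 and 0.20 with saline. Neither had a call in the average (0.05 for Hsf1, adjusted p = 0.615, and 0.10 for Hsf2, adjusted p = 0.364). Heat shock factor 1 is governed mainly by its protein state, which RNA does not show. The averages of Hsf1 and Hsf2 turned to -0.02 and -0.04 with median centring, neither with a call, and that of Atf6 turned to 0.03 without the saline 48 h array and to 0.01 without the cobalt 48 h array.

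The response at 24 and 48 h minus that at 6 and 12 h was the place to look for genes that come and go. No probe of all 28440 passed for this contrast in limma, while 11 of the 56 genes (19.6%) and 13% of all gene names had an unadjusted p under 0.05. Those with the lowest p were Atf4 (-0.80 ± 0.18, adjusted p = 0.261), Atf6 (-0.56 ± 0.14, adjusted p = 0.265), Hspa5 (-0.57 ± 0.16, adjusted p = 0.27), Canx (0.44 ± 0.13, adjusted p = 0.272), Ddit3 (-0.43 ± 0.13, adjusted p = 0.274) and Hsf1 (-0.31 ± 0.09, adjusted p = 0.274). The estimate was negative for all 5 transcription factors, with a median of -0.43, against a median of -0.01 over all probes. On simulated data, this contrast recovered 76.5% of probes with a true difference of 1 and 2.5% of those with 0.5.

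**Figure D2:**
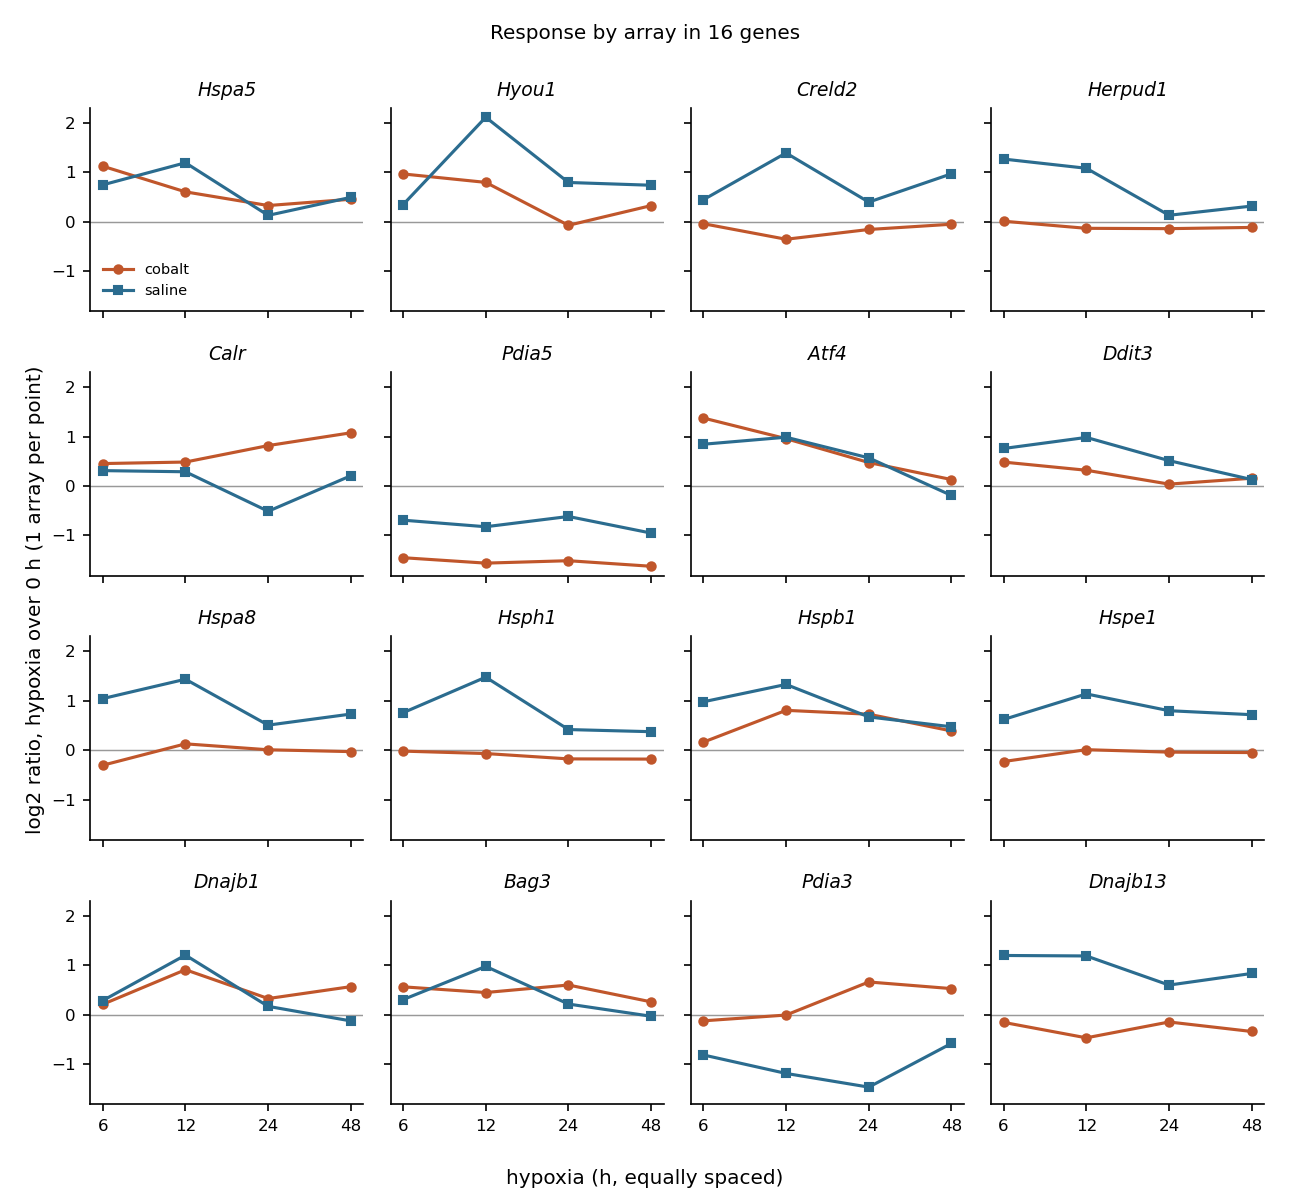
Log2 ratio of hypoxia over 0 h (y axis) against hours of hypoxia (x axis, equally spaced) for 16 genes, with cobalt as circles and saline as squares and 1 array per point. Atf4 is lowest at 48 h in both pretreatments, Pdia5 is below 0 throughout, and Hspa8, Hsph1 and Hspe1 are near 0 with cobalt and above 0 with saline.

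Of the 7 cytosolic HSP70, HSP90 and HSP110 genes, 4 rose in the average and none fell, against 15.8% and 16.4% of all gene names. After cobalt none of the 7 had a call, with a median of -0.05, where 20.8% of all gene names had one in either direction. After saline 5 rose and 1 fell, with a median of 0.38, against 22% of all gene names higher and 18.5% lower. Hspa8, the constitutive cytosolic HSP70, was at -0.30, 0.13, 0.01 and -0.03 on the cobalt arrays and at 1.05, 1.44, 0.51 and 0.73 on the saline arrays. On its brightest probe every saline array was above every cobalt array, while on each of its other probes the pretreatments overlap. The average was 0.44 ± 0.10 (adjusted p = 0.00717), or 1.36-fold, and came from the saline arrays (0.93, adjusted p = 0.000707). The mean over its 4 probes was only 0.13 (adjusted p = 0.322).

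Hsph1, the HSP110 that recharges HSP70, was at -0.02, -0.07, -0.17 and -0.18 on the cobalt arrays and at 0.76, 1.48, 0.42 and 0.38 on the saline arrays. Its average was 0.32 ± 0.11 (adjusted p = 0.0472). That call was lost in 5 of 8 leave-one-out fits (adjusted p up to 0.0985), while the saline estimate of 0.76 kept its call in all of them. The average was 0.20 (adjusted p = 0.0451) without the saline 12 h array and missed the threshold with median centring (0.27, adjusted p = 0.0681). Hspa2 (0.22 ± 0.06) and Hspa14, a ribosome-associated HSP70 (0.14 ± 0.05), also passed, but Hspa2 lost the call in 4 and Hspa14 in all 8 leave-one-out fits, with adjusted p up to 0.0749 and 0.104. Hspca, the inducible HSP90 now called Hsp90aa1, was at -0.14, 0.08, 0.05 and 0.05 with cobalt and at 0.26, 0.96, 0.21 and 0.20 with saline, for an average of 0.21 ± 0.09 (adjusted p = 0.0867), or 0.12 without the saline 12 h array. Hspcb, the constitutive HSP90 now called Hsp90ab1, was at -0.13 ± 0.09 (adjusted p = 0.313). It was at -0.32, 0.05, -0.23 and -0.26 with cobalt and at -0.06, 0.49, -0.30 and -0.42 with saline, and without the saline 12 h array the average was -0.22 (adjusted p = 0.0378). Hspa4 was at -0.20 ± 0.09 (adjusted p = 0.103).

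The heat shock element, searched on both strands as GAA, TTC and GAA with 2 bases between each, lies in 0.798% of all promoter windows and in those of Hspa8, Hsph1, Hspe1, Hspd1 and Dnaja1. Hspd1 and Hspe1 lie head to head on opposite strands, and their windows share 211 bases, so that they hold the same element. The stretches below are shown because these genes have the same element and are described together here and in the paragraphs that follow.
Hspa8 chr8:50080281-50080333: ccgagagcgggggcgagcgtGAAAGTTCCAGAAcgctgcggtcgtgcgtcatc
Hspa8 chr8:50080439-50080491: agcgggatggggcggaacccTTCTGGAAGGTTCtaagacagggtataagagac
Hsph1 chr12:10427312-10427364: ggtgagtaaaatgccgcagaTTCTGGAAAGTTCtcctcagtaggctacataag
Hspe1 chr9:64084242-64084299: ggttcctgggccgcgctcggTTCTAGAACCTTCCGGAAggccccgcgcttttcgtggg

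These are GRCr8 positions, and all 3 genes lie on the plus strand. In the Hspe1 stretch 2 overlapping matches, 1 on each strand, are joined in the capitals. All 5 members with the element rose in the average, with a median of 0.37. Over all 53 array genes with the element in the window, 10 rose and 9 fell, with a median of -0.01. These 53 are the 5 members and 48 other genes, so the 10 that rose include the 5 members.

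Of the 6 small heat shock proteins and Bag3, 3 rose in the average and none fell, against 15.8% and 16.4% of all gene names. Hspb1, the widely expressed HSP27, was at 0.16, 0.81, 0.73 and 0.39 on the cobalt arrays and at 0.98, 1.33, 0.68 and 0.48 on the saline arrays. It was above 0 on all 8. The average was 0.69 ± 0.10 (adjusted p = 0.00115), or 1.62-fold, and it was called under all 20 alternatives. This probe is printed 10 times on each array, and the SD of the 10 log2 ratios was 0.0227 to 0.0757, much less than the spread between arrays.

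Hspb8, which works with Bag3 to send misfolded protein to autophagy, was at 0.79, 0.59, 0.65 and 0.37 with cobalt and at 0.72, 0.33, 0.01 and 0.19 with saline, with an average of 0.45 ± 0.08 (adjusted p = 0.00301). Bag3, an HSP70 co-chaperone, was at 0.56, 0.45, 0.60 and 0.26 with cobalt and at 0.30, 0.97, 0.21 and -0.04 with saline, with an average of 0.41 ± 0.10 (adjusted p = 0.011). Both genes kept the call whichever array was left out. Hspb2 (0.16), Hspb7 (0.11) and Hspb6 (0.02), which are best known from muscle, had no call in the average. Hspb7 was called after cobalt (0.27, adjusted p = 0.0144), but its hypoxia signal was well above background on only 2 of 4 cobalt arrays and its 0 h signal on 1 of 4. The second Hspb7 probe, also dim, was called in the average (0.20). Of the smooth muscle markers, 9 of 9 rose after cobalt, with array medians from 1.38 to 1.94. After saline 6 of 9 rose and 2 fell, with array medians from 0.53 to 1.15. The array medians of the small heat shock group were 0.22 to 0.48 with cobalt and 0.11 to 0.33 with saline. Within cobalt the medians of the markers and of the small heat shock group were both highest at 24 h. Within saline the markers were lowest at 12 h and the small heat shock group at 24 h. The part of the markers in the small heat shock genes was not tested.

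Of the 5 mitochondrial members, Hspe1, Dnajc15 and Hspd1 rose in the average and none fell, against 15.8% and 16.4% of all gene names. Hspe1, the small partner of the mitochondrial chaperonin, was at -0.23, 0.01, -0.04 and -0.05 on the cobalt arrays and at 0.62, 1.14, 0.80 and 0.72 on the saline arrays. The pretreatments do not overlap, and the average was 0.37 ± 0.06 (adjusted p = 0.00234). Dnajc15 was between -0.23 and 0.38 with cobalt and between 0.35 and 0.78 with saline (average 0.31 ± 0.08, adjusted p = 0.0125). Hspd1, the chaperonin HSP60 itself, was at -0.02, 0.11, 0.18 and 0.23 with cobalt and at 0.13, 0.57, 0.20 and 0.26 with saline. Its average was 0.21 ± 0.06 (adjusted p = 0.0262). Without the saline 12 h array it was 0.16 (adjusted p = 0.0525), and the mean of its 4 probes was 0.07 (adjusted p = 0.451). Dnajc11 (0.16) and Dnaja3 (-0.13) had no call.

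Of the 18 other J-domain proteins, 3 rose, 3 fell and 12 had no call, with a median of -0.02. The shares that rose and fell, 16.7% each, were near the 15.8% and 16.4% of all gene names. All 25 J-domain members together had 5 higher and 3 lower, 32% with a call, close to the 32.2% of all gene names. Dnaja1, a main partner of cytosolic HSP70, was at -0.06, 0.62, 0.10 and 0.36 on the cobalt arrays and at 0.30, 1.54, 0.46 and 0.38 on the saline arrays, with an average of 0.46 ± 0.13 (adjusted p = 0.026). Dnajb1, the HSP40 that heat shock induces, was at 0.21, 0.91, 0.32 and 0.56 with cobalt and at 0.28, 1.20, 0.17 and -0.13 with saline, with an average of 0.44 ± 0.13 (adjusted p = 0.0314). Both genes were highest at 12 h in each pretreatment. Leaving out 1 array ended the call of Dnaja1 in 2 fits and of Dnajb1 in 3 fits, with adjusted p up to 0.0734 and 0.086, all of them fits without a cobalt array. The second Dnajb1 probe gave 0.22 without a call, and the mean over its probes was 0.33 (adjusted p = 0.0554).

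Dnajb13, which is best known from sperm tails and cilia, was at -0.16, -0.47, -0.15 and -0.34 with cobalt and at 1.20, 1.19, 0.60 and 0.83 with saline, for an average of 0.34 ± 0.08 (adjusted p = 0.0101). Ciliated cell markers moved in the same direction as Dnajb13: their median was -0.36 after cobalt, with 5 of 10 lower and none higher, and 0.96 after saline, with 7 of 10 higher and 1 lower. Over single arrays that median ranged from -0.575 to -0.112 with cobalt and from 0.63 to 1.21 with saline. Their part in Dnajb13 was not tested. Dnaja4, a membrane-anchored relative of Dnaja1, was at -0.74, -0.36, -0.19 and 0.04 with cobalt and at -0.69, -0.40, -0.66 and -0.16 with saline (average -0.40 ± 0.09, adjusted p = 0.00964). Dnajc14 was at -0.11, 0.02, -0.04 and 0.22 with cobalt and at -0.59, -0.81, -0.52 and -0.44 with saline, and Dnajb6 was at 0.25, 0.00, 0.24 and 0.23 with cobalt and at -0.53, -0.68, -0.84 and -0.38 with saline. All 4 saline arrays were below all 4 cobalt arrays for each gene. Both fell in the average (-0.29 ± 0.06 for Dnajc14 and -0.21 ± 0.06 for Dnajb6), and Dnajb6 lost its call in 4 of 8 leave-one-out fits (adjusted p up to 0.0785) and with the mean over its probes (-0.17, adjusted p = 0.0548). The 12 J-domain genes without a call lay between -0.16 and 0.12.

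The responses of the pretreatments were also tested apart, and in each of them hypoxia cannot be told apart from a dye bias of the probe. After cobalt, 10 member probes rose and 4 fell of 81 (17.3% in either direction), against 8.56% and 12% of all probes (20.5% in either direction). By gene, against 8.53% of all gene names, 8 rose: Atf4 (0.74 ± 0.22), Calr (0.71 ± 0.15), Hspa5 (0.63 ± 0.17), Hspb8 (0.60 ± 0.12), Hspb1 (0.52 ± 0.14), Bag3 (0.46 ± 0.14), Dnajb5 (0.40 ± 0.09) and Hspb7 (0.27 ± 0.06). Against 12.3% of all gene names (20.8% in either direction), 3 fell: Pdia5 (-1.54 ± 0.08), Pdia2 (-0.57 ± 0.17) and Dnajc4 (-0.33 ± 0.08). Only Hspb8 and Pdia5 kept their call whichever array was left out, and the number of member probes called fell to 4 without the cobalt 6 h array, 3 without 12 h, 4 without 24 h and 7 without 48 h. The shares of all probes in these fits are not given here, so whether the loss is particular to the members cannot be read from these counts. With median centring, 4 probes rose and 68 fell, against 19.7% and 60.3% of all probes.

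After saline, 26 member probes rose and 11 fell of 81, against 20.6% and 20.2% of all probes (40.7% in either direction). By gene, 21 rose and 10 fell of 56, against 22% and 18.5% of all gene names (40.5% in either direction). The highest estimates were those of Hyou1 (1.00 ± 0.26), Dnajb13 (0.95 ± 0.11), Hspa8 (0.93 ± 0.14), Hspb1 (0.87 ± 0.14) and Hspe1 (0.82 ± 0.09). The first place of Hyou1 rests on the saline 12 h array, without which it was at 0.63. The lowest were those of Pdia3 (-1.02 ± 0.16), Pdia5 (-0.77 ± 0.08), Dnajb6 (-0.61 ± 0.09) and Dnajc14 (-0.59 ± 0.09). Of these calls, 14 of the 21 higher and 5 of the 10 lower held whichever array was left out. With median centring, 63 probes rose and 2 fell, against 47.1% and 10.8% of all probes. Median centring moved the median of all probes to -0.48 after cobalt and 0.24 after saline, and the median of member probes to -0.79 and 0.71.

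The cobalt response minus the saline response was called higher for 10 member probes and lower for 15 of 81, against 13.9% and 16.6% of all probes (30.5% in either direction). The share of member probes called in either direction, 30.9%, was thus near the background. By gene, 8 of 56 were higher (14.3%) and 12 lower (21.4%), against 12.8% and 17.6% of all gene names (30.4% in either direction). Among the 12 were 3 of the 7 cytosolic HSP70, HSP90 and HSP110 genes and 2 of the 5 mitochondrial genes, all lower after cobalt. The differences at the low end were Pdia2 (-1.31 ± 0.24), Dnajb13 (-1.23 ± 0.16), Hspa8 (-0.98 ± 0.19), Creld2 (-0.95 ± 0.21), Hspe1 (-0.90 ± 0.13) and Hsph1 (-0.87 ± 0.22). In all 6, the cobalt estimate was below 0 and the saline estimate above 0, but only Pdia2 had a call after cobalt. Pdia2, a disulphide isomerase best known from the pancreas, was at -0.32, -0.61, -0.45 and -0.92 on the cobalt arrays and at 0.77, 1.45, 0.29 and 0.43 on the saline arrays. The differences at the high end were Pdia3 (1.28 ± 0.23), Dnajb6 (0.79 ± 0.12), Atf6 (0.67 ± 0.23), Calr (0.63 ± 0.21) and Dnajc14 (0.61 ± 0.12).

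Pdia5 differed by -0.77 ± 0.11 (adjusted p = 0.000995) with both responses below 0, so its fall was larger after cobalt. The genes with the highest averages did not all differ between the pretreatments. Hspa5 gave -0.01 ± 0.24 (adjusted p = 0.975), Atf4 0.18 (adjusted p = 0.688), Bag3 0.10 (adjusted p = 0.731) and Dnajb1 0.12 (adjusted p = 0.767), none of which shows that the responses are alike. Of the 12 lower differences 10, and of the 8 higher 4, were called whichever array was left out. With median centring the difference was called higher for 4 and lower for 70 member probes, against 17.1% and 61% of all probes, and it turned to -0.90 for Dnajb6, -0.50 for Pdia3, -0.57 for Dnajc14, -1.16 for Calr and -0.69 for Atf6. Since the slide and the dye orientation change with the pretreatment, none of these differences can be assigned to cobalt.

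**Figure D3:**
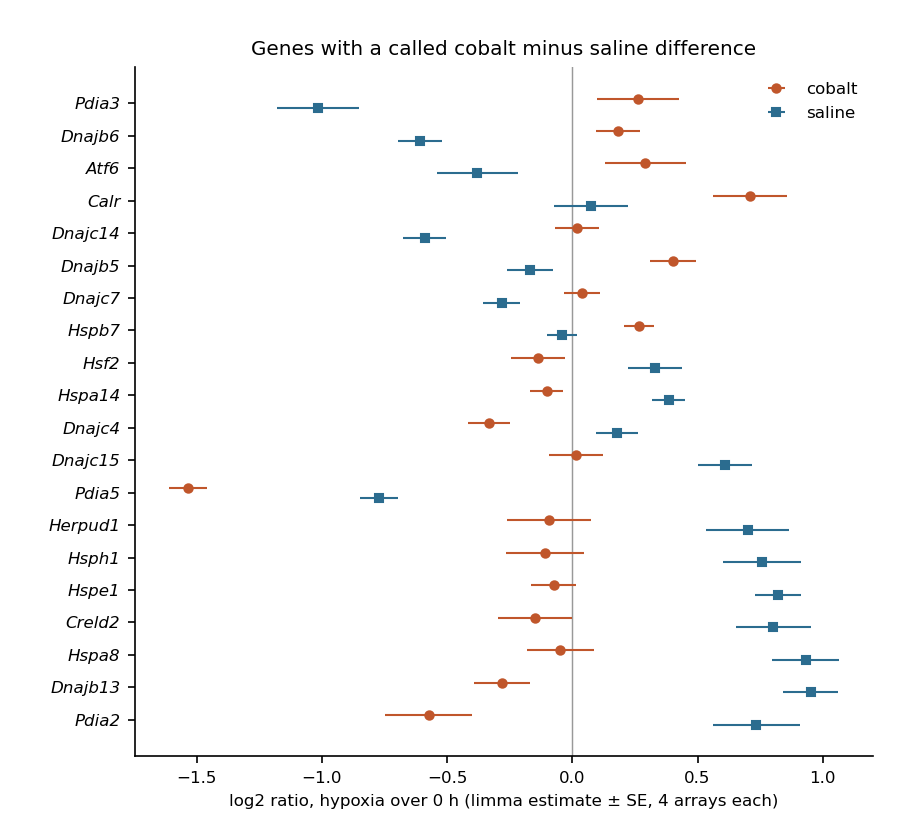
Limma estimates ± SE of the log2 ratio of hypoxia over 0 h after cobalt (circles) and after saline (squares), 4 arrays each, for the 20 genes whose cobalt minus saline difference was called, ordered from the highest difference at the top to the lowest at the bottom. Pdia3 at the top is at 0.26 with cobalt and -1.02 with saline, and Pdia2 at the bottom is at -0.57 with cobalt and 0.73 with saline.

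Many of the heat shock genes shared their highest array. Of the 56 genes, 19 (33.9%) had their highest ratio on the saline 12 h array, where 16.9% of all gene names had theirs. By role, these were 5 of 7 cytosolic HSP70, HSP90 and HSP110 genes, 3 of 5 mitochondrial genes, 5 of 15 ER genes and 3 of 18 other J-domain genes. The genes were Bag3, Creld2, Ddit3, Dnaja1, Dnajb1, Dnajc13, Dnajc15, Dnajc3, Hspa14, Hspa5, Hspa8, Hspb1, Hspca, Hspcb, Hspd1, Hspe1, Hsph1, Hyou1 and Pdia2. The cobalt 12 h array was the highest for none of the 56, and for 9.38% of all gene names.

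The stress-inducible HSP70, Hspa1a, is not among the 60 names because a letter follows its number. It was singled out after its values were seen, since it is the classic target of heat shock factor 1, and it was read on 2 probes. On its brighter probe it was at 0.60, 1.49, 0.13 and -0.12 on the cobalt arrays and at 1.49, 5.32, 1.79 and 0.22 on the saline arrays. The dimmer probe gave 0.30, 0.93, 0.46 and 0.51 with cobalt and 0.45, 2.74, 0.22 and -0.14 with saline. Both probes were highest on the saline 12 h array and, within cobalt, on the 12 h array. The dimmer probe had no call in the average (0.69 ± 0.26, adjusted p = 0.0721) or after saline (0.82, adjusted p = 0.104). The average of the brighter probe was 1.37 ± 0.45 (adjusted p = 0.0422), with 2.21 after saline (adjusted p = 0.0203). On the saline 12 h array, the hypoxia signal was saturated in 5 of the 10 spots of this probe, so the ratio of 5.32 there may be too low. Without that array the average was 0.85 ± 0.22 (adjusted p = 0.0242) on the brighter probe and 0.365 ± 0.09 (adjusted p = 0.0219) on the dimmer one. Their saline estimates were then 1.17 (adjusted p = 0.0296) and 0.18 (adjusted p = 0.362). Without the saline 12 h array, 17 member genes rose after saline and 9 fell, where the shares of all gene names are not given here. The calls after saline that needed that array were those of Dnajc3, Hspa5, Hspca and Hspd1 and, among genes lost without other arrays too, Dnajb9, Hsf2, Dnaja3 and Dnajc8. There is 1 array at this time and pretreatment, so the peak has no replicate. Marker lists of cell types also stood at their highest or lowest within saline on that array. The medians there were 1.21 for ciliated cells, 1.12 for plasma and B cells, 1.05 for neutrophils and 0.87 for cardiac and skeletal muscle, against -1.61 for type I cells, -1.04 for endothelium and -0.97 for type II cells. The smooth muscle markers (0.53), club cell markers (1.01) and T and NK cell markers (-0.14) were likewise at an end of their saline range, while macrophage markers (0.14) were not. Their part in the peak was not tested.

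**Figure D4:**
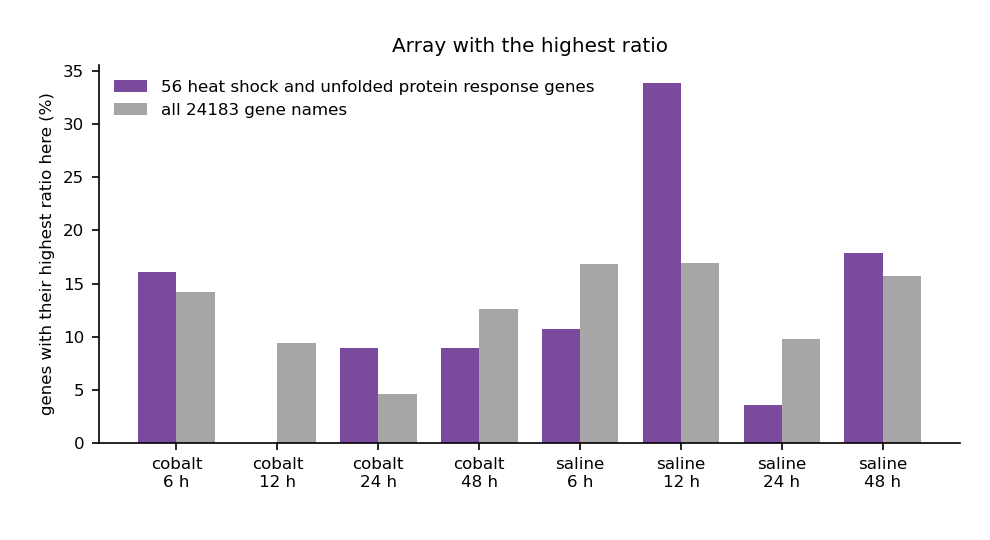
Share of genes (%, y axis) whose highest ratio of hypoxia over 0 h lay on each of the 8 arrays (x axis, cobalt left and saline right), for the 56 heat shock and unfolded protein response genes and for all 24183 gene names. The saline 12 h array holds 33.9% of the 56 genes and 16.9% of all gene names.

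Where a gene had several probes, they often did not give the same answer. Of 18 genes with more than 1 tested probe, 10 had some probes called and some not, none had all called and none was called both ways. The spread was widest for Hyou1 (0.61 between its probes), Hspa8 (0.49) and Hspa4 (0.41). The 4 Hspa8 probes are shown because those at the higher coordinates gave the higher estimates. All lie on the plus strand of chromosome 8 (build rn3, as the array files give it) and are 60 bases long.
Hspa8 chr8:43794042-43794217: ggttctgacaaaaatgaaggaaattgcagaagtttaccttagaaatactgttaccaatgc
Hspa8 chr8:43794585-43794656: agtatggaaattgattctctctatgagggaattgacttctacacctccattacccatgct
Hspa8 chr8:43795579-43795638: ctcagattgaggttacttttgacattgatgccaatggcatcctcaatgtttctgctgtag
Hspa8 chr8:43795980-43796293: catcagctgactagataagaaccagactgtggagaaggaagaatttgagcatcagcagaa

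After saline, the 4 probes in this order gave 0.13, -0.05, 0.41 and 0.93, and only the last pair passed (adjusted p = 0.0292 and 0.000707). After cobalt they gave -0.19, -0.06, -0.12 and -0.05, none with a call. The average was -0.03, -0.05, 0.14 and 0.44. The probe at the lowest coordinate was also the dimmest, with a mean log2 intensity of 8.84, while the other 3 were at 13.2 to 14.1. Hspa8 has near-identical processed copies in rodent genomes, and which copies each probe reads was not tested.

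Hyou1 had its bright probe at 47367551 to 47367610 and its dim one upstream at 47364983 to 47365133 of chromosome 8 (rn3, plus strand), with mean log2 intensities of 12.4 and 6.72. The bright probe rose after saline (1.00, adjusted p = 0.0119), and the dim one gave 0.06 (adjusted p = 0.594). For Hspa4, the brighter probe had an average of -0.20 and the dimmer one 0.21, and the dimmer one alone was called (adjusted p = 0.0414). The signs of this gene therefore differ between its probes. A dimmer probe also passed where the brightest did not for Dnajb9 (0.19, adjusted p = 0.0258), Pdia6 (0.33, adjusted p = 0.0482) and Dnajc10 (-0.20, adjusted p = 0.0385).

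**Figure D5:**
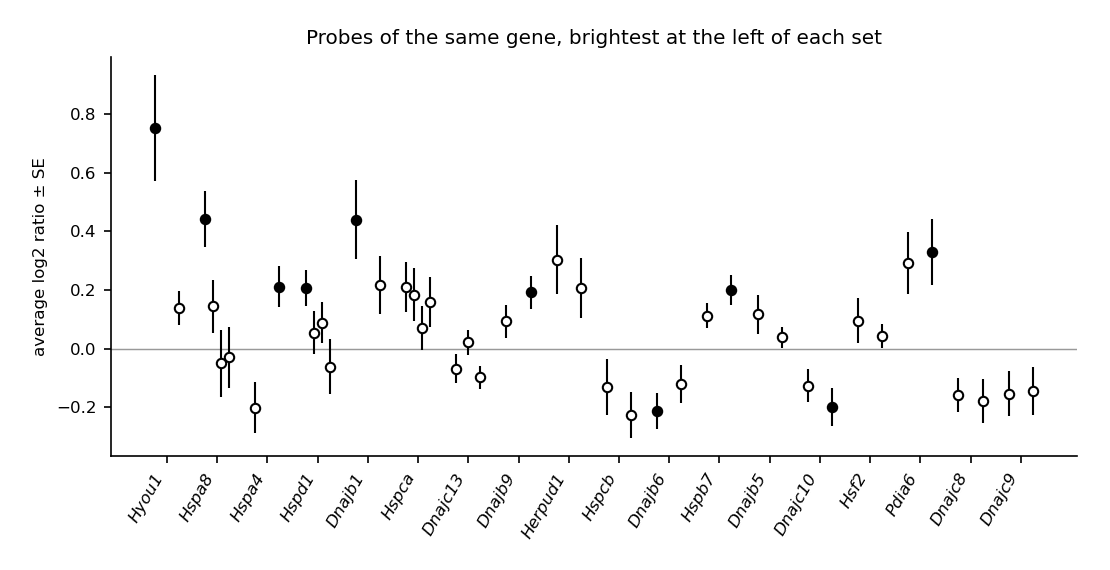
Average log2 ratio of hypoxia over 0 h ± SE (y axis) for each tested probe of the 18 genes with several probes (x axis, ordered by the spread between probes, brightest probe at the left of each set), with filled points called and open points not. Hyou1, at the left, spans 0.14 to 0.75, and Hspa8 spans -0.05 to 0.44.

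Genes of the same pathways outside the 60 names were read from lists of neighbouring functions, and their counts in the average stand against 15.8% of all gene names higher and 16.4% lower. Of 30 genes of ER folding, quality control and ER-associated degradation, 8 rose (26.7%) and 1 fell in the average, with a median of 0.13. Ero1a, the oxidase that drives disulphide formation and is a known hypoxia target, was at 0.59 ± 0.07 (adjusted p = 0.000336). Manf (Armet on the array), a secreted ER stress factor, was at 0.66 ± 0.10, Fkbp11, a proline isomerase of secretory cells, at 0.66 ± 0.12, and Rcn1, a calcium-binding ER protein, at 0.40 ± 0.08. For Rcn1 a second, dimmer probe was called the other way (-0.22, adjusted p = 0.0487). Manf was above 0 on all 8 arrays, from 0.29 to 0.92 with cobalt and from 0.47 to 1.26 with saline. Sel1l and Edem1, listed under older names, gave 0.33 ± 0.07 for Sel1l and 0.19, 0.26 and 0.45 for the 3 Edem1 probes, of which the brightest, at 0.19, had no call.

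Of 24 sensors, factors and PERK targets, 5 rose (20.8%) and 2 fell (8.33%). Atf5 was at 0.45 ± 0.07, with 1.00 after cobalt and -0.09 after saline, though its signal was saturated on 3 arrays. Creb3 rose by 0.28. Mbtps1, the protease that cuts ATF6, fell by 0.51, and Sesn2, a stress-induced regulator of mTORC1, fell by 0.46 and was below 0 on all 8 arrays. Of 29 genes of ER translocation and secretion, 8 rose (27.6%) and 3 fell (10.3%), with Dad1 (0.47), Rpn2 (0.38) and Ostc (0.37), all of the oligosaccharyltransferase, among those that rose and Sec62 (-0.55) among those that fell.

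Of 34 cytosolic chaperones and HSP90 co-chaperones, 10 rose (29.4%) and 1 fell in the average. After saline 14 rose (41.2%) and 7 fell (20.6%), against 22% and 18.5% of all gene names, so the share that fell was near the background. Fkbp5, a glucocorticoid-induced HSP90 co-chaperone, was at 1.45, 0.05, 0.44 and 0.57 with cobalt and at 3.24, 2.32, 0.90 and 0.46 with saline. Bag1, an HSP70 nucleotide exchange factor, was at 0.24. The chaperonin subunits Cct3 and Tcp1 were at 0.34 and 0.22, each from the saline arrays (0.77 and 0.53, against -0.09 for both after cobalt). Hspa4l, an HSP110 relative singled out after its values were seen, was called lower after cobalt (-0.53) and higher after saline (1.25), and its second probe gave -0.63 and 1.49. Of 12 mitochondrial chaperones and proteases, 2 rose (Hspa9 and Htra2, 16.7%) and 1 fell (Timm44, -0.20), so the share that rose was near that of all gene names. Hspa9, the mitochondrial HSP70, was above 0 on all 8 arrays with an average of 0.42 ± 0.06 (adjusted p = 0.000654), while its second, dim probe was at -0.01.

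The 4 gene names that were not tested were Dnajc6, with 4 probes, Dnajc5g, Hspb3 and Hspb9, with 1 probe each. For these 7 probes, at most 2 of the 8 arrays had a signal well above background in any channel. No member probe was saturated on any array.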

How the data were processed

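Lung RNA was read on 8 Agilent two-colour arrays of 60-base probes, 1 for each pretreatment and duration. The deposited scanner files, written by Feature Extraction 9.5.1.1 per the file headers, hold each spot's mean and local background brightness (intensity). The deposited LogRatio column, per the file headers, is a log10 ratio of red to green computed by that software from its processed signals. The deposited value table holds log2 values whose scale and direction are not stated. They were read from the data: every column has a median of 0 and a correlation of 1 with LogRatio oriented as hypoxia over 0 h.

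In limma 3.58.1 (R 4.3.3, with the data.table package in version 1.17.8), background was removed with normexp (offset 50) and each array was fitted by loess, with control spots at weight 0 and outlier spots dropped. Spots of a probe were averaged. The filter asked for 4 of 8 arrays or more with a signal well above background, whichever the channel, and no missing value, which left 28440 of 41012 probes. The model had 1 mean per pretreatment (6 residual degrees of freedom) or, for late minus early, a term for duration, with eBayes and an intensity trend. Benjamini-Hochberg adjustment ran over all probes at 0.05. A gene stands for its brightest probe. The number of arrays limits the precision. On simulated data the average recovered 79.5% of true changes of 0.5 and the cobalt minus saline difference 17%.

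Coordinates of probes are rn3, as the files give them, and promoters are RefSeq GRCr8. Sums and figures used numpy 2.4.6 and matplotlib 3.10.9. Genes given on every array include a fixed set of stress genes and the 10 highest and 6 lowest averages called. They also include the 6 lowest p for cobalt minus saline and for late minus early. Up to 4 genes of each pathway list, those with the lowest p in the average, are named, most of them by their estimates alone. The members and lists were chosen with earlier results of these data known. The alternatives were the software's log ratios, the series matrix, no background subtraction, median centring, scaling between arrays, other filters, other rules for probes, outlier spots kept, no trend, duration as a block, and leaving out each array.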

Additional observations from a re-analysis of the deposited data

Results flagged for a closer look

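These genes have cobalt responses that differ from their saline responses by limma's test of the difference, in a design where slide, scan and dye orientation change with the pretreatment and cannot be told apart from it. The difference was negative for Pdia2 (-1.31 ± 0.24, adjusted p = 0.00388), Dnajb13 (-1.23 ± 0.16, adjusted p = 0.000597), Hspa8 (-0.98 ± 0.19, adjusted p = 0.00479) and Creld2 (-0.95 ± 0.21, adjusted p = 0.00844). It was negative too for Hspe1 (-0.90 ± 0.13, adjusted p = 0.00102), Hsph1 (-0.87 ± 0.22, adjusted p = 0.0155), Herpud1 (-0.79 ± 0.24, adjusted p = 0.0292) and Hsf2 (-0.47 ± 0.15, adjusted p = 0.0424). In all 8 the cobalt estimate was below 0 and the saline estimate above 0. After cobalt only Pdia2 (-0.57) had a call, and some of the others were near 0, such as Hspa8 (-0.05) and Hspe1 (-0.07). Pdia5 differed by -0.77 ± 0.11 (adjusted p = 0.000995), with -1.54 after cobalt and -0.77 after saline. Leaving out 1 array ended the call of Herpud1 in 5 of 8 fits and of Hsf2 in 6 of 8, with adjusted p up to 0.0701 and 0.118. With the mean over the probes of a gene, the calls of Hspa8 (-0.46, adjusted p = 0.0857), Herpud1 (-0.60, adjusted p = 0.056) and Hsf2 (-0.25, adjusted p = 0.0791) were lost.

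The difference was positive, with a cobalt estimate above 0 and a saline estimate below 0, for Pdia3 (1.28 ± 0.23, adjusted p = 0.0033), Dnajb6 (0.79 ± 0.12, adjusted p = 0.00168), Atf6 (0.67 ± 0.23, adjusted p = 0.0491) and Dnajc14 (0.61 ± 0.12, adjusted p = 0.0058). None of these genes had a call after cobalt, where Dnajc14 was at 0.02, and Atf6 had none after saline. Calr differed by 0.63 ± 0.21 (adjusted p = 0.0446), with 0.71 after cobalt and 0.07 after saline. Leaving out 1 array ended the call of Atf6 in 6 of 8 fits and of Calr in 5 of 8, with adjusted p up to 0.115 and 0.109, and the mean over probes ended that of Atf6 (adjusted p = 0.0506). Under median centring the 5 positive differences turned negative.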

How the results depend on the processing

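Median centring in place of loess moved most counts. It gave 17 higher and 15 lower member probes in the average, 72 calls after cobalt (4 higher, 68 lower), 65 after saline (63 higher, 2 lower) and 74 for cobalt minus saline (4 higher, 70 lower). Of member probes, 39.5% were called in the average, 88.9% after cobalt, 80.2% after saline and 91.4% for the difference. Of all probes, 47.8%, 80%, 57.9% and 78.2% were called. The medians of member probes were then -0.79 after cobalt, 0.71 after saline and -1.69 for the difference. The difference turned to -0.90 for Dnajb6, -0.50 for Pdia3, -0.57 for Dnajc14, -1.16 for Calr and -0.69 for Atf6, and the average to -0.0195 for Hsf1 and -0.0412 for Hsf2. The cause was not tested. With no filter on dim probes, 6 member probes were higher for cobalt minus saline (6.82%, against 10.1% of all probes). With the mean over probes of a gene, 16 genes were called (28.6%, against 30% of all gene names). Of these, 6 were higher (10.7%, against 13%).

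Leaving out each array in turn gave 19 to 30 calls in the average (14 to 23 higher, 3 to 10 lower), 3 to 16 after cobalt (2 to 12 higher, 1 to 4 lower), 27 to 37 after saline (18 to 26 higher, 7 to 11 lower), 17 to 23 for cobalt minus saline (5 to 10 higher, 12 to 18 lower) and 0 for late minus early. The shares of all probes in these fits are not given here, so the ranges show only how the member counts move. The average of Atf6 ranged from -0.1364 to 0.0264.

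Cobalt and saline arrays of the same duration deviated together at 6 h (r = 0.204) and 48 h (0.443) but not at 12 h (-0.138) and 24 h (-0.187). With so few arrays, these values do not decide whether the arrays pair by duration. With duration as a block, 34 member probes were called in the average (42%), 16 after cobalt (19.8%), 41 after saline (50.6%) and 25 for cobalt minus saline (30.9%). Of all probes, 32.7%, 20.8%, 41.4% and 30.7% were called. The member shares after cobalt and for cobalt minus saline were thus near the background. No block was fitted for late minus early. Of 297 comparisons of counts with alternatives, 262 stayed within 1.5 times or on their side. Of 974 for single genes 864 kept direction and call, 91 lost the call, 10 gained one and 9 turned direction. The design has 1 array per group, and the spread of the 0 h RNA was not measured.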

Other observations

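Markers of the cell types in the lung, read beside the chaperone genes, gave these medians. Club cell markers were at -0.63 after cobalt (3 of 5 lower) and 1.30 after saline (4 of 5 higher). Type I cell markers were at -0.48 after cobalt and -0.80 after saline, and endothelial markers at 0.02 and -0.90. T and NK cell markers were at -0.62 after cobalt and -0.51 after saline, and cardiac and skeletal muscle markers at 0.05 and 0.63. Macrophage markers were at -0.03 after cobalt and 0.05 after saline, neutrophil markers at 0.31 and -0.03, and plasma and B cell markers at -0.12 and 0.09. Their part in the responses of the chaperone genes was not tested.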
